A study of Mus musculus with 2 samples.

Results

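The imprinted Dlk1-Dio3 cluster of miRNAs was examined in RNA that had been pulled down with biotinylated proteins of cultured mouse keratinocytes, the main epithelial cells of the skin. Its members were chosen by name alone, as mature miRNAs carrying 1 of 46 numbers assigned to the cluster. Of 1477 miRNA names listed in either library, 52 were members. Both libraries came from the same group. The cells were skin keratinocytes grown in low-calcium medium, with exogenous expression of a Dsp-BirA fusion and with biotin treatment. Dsp is desmoplakin, which links desmosomes to the keratin skeleton, and BirA is a ligase that attaches biotin to proteins near it. The purpose was to learn what Argonautes, the proteins that carry miRNAs, do at the desmosomal plaque. The labels do not give the promoter of the fusion, whether the cells came from a single clone, or whether the libraries came from separate cultures. No library of the input, of untreated cells or of total Argonaute was analysed here. The values therefore show what was recovered, and a scarce miRNA in the cells cannot be told apart from a miRNA poorly recovered, nor fewer cells of a type from less RNA per cell.

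In the mouse this cluster is a long array of miRNA hairpins on chromosome 12. As background, the miRNAs and the long noncoding RNAs Meg3, Rian and Mirg are made from the maternal chromosome, while the protein-coding genes Dlk1, Rtl1 and Dio3 are expressed from the paternal one. Hairpins opposite to Rtl1, such as miR-127 and miR-136, pair fully with the Rtl1 transcript and can direct its cleavage. The cluster is best known for its expression in embryo, placenta and brain. Of the 52 listed names, 49 matched the RefSeq miRNA table of GRCm38.p6, and 48 of these lay on chromosome 12. The exception was miR-496b, which RefSeq places on chromosome 19, outside the cluster. It fell under the naming rule with 1 count in each library. The member hairpins on chromosome 12 numbered 49 and spanned 171.8 kb, from 109571990 to 109743795. RefSeq gene models put 11 of them within the span of Rtl1, 2 within Rian and 8 within Mirg, and 28 outside these 3 genes.

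The following mature sequences (RefSeq, GRCm38.p6, 5′ to 3′) carry the main observations, with the seed, bases 2 to 8, in capitals. The leading group holds the 4 members with a mean of at least 10 CPM (counts per 1000000 miRNA counts), and the next 3 are Rtl1-antisense names that were at 0 in both libraries.
miR-494-3p: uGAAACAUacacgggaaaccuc
miR-493-3p: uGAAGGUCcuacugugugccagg
miR-541-3p: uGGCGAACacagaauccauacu
miR-370-3p: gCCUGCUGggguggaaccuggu
miR-127-3p: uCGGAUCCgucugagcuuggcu
miR-434-3p: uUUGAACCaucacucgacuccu
miR-433-3p: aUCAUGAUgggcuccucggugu

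None of the 4 leading sequences shared its seed with another miRNA of the RefSeq table. miR-494-3p lies at chr12:109715367-109715388 and miR-493-3p at chr12:109580283-109580305, within the span of Rtl1. miR-541-3p lies at chr12:109742466-109742487, within Mirg, and miR-370-3p at chr12:109618305-109618326, within Rian. All 4 are on the plus strand.

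The cluster contributed very little to the recovered miRNAs. Its summed counts were 945 of 3776893 in replicate 1 and 1204 of 4122955 in replicate 2. This was 0.0250% of replicate 1 (Wilson 95% interval 0.0235% to 0.0267%) and 0.0292% of replicate 2 (0.0276% to 0.0309%), or 0.0271% ± 0.00296 (SD, n = 2). These intervals cover counting error only, because reads copied by PCR are not independent molecules. All members together were outnumbered 528 ± 71.1 to 1 (SD, n = 2) by miR-31-5p, the most abundant name. The median member had a mean of 1.91 CPM, against 4.99 CPM over all listed names. A mean of at least 10 CPM was reached by 4 members (7.69%) and by 521 of all names (35.3%).

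No reads were listed for a large part of the annotated members. The RefSeq table holds 94 names that fit the rule, and the tables list 3 more (miR-376c-3p, miR-485-5p and miR-539-3p), which gives 97. Of these, 45 (46.4%) were at 0 in both libraries. Among RefSeq names alone, this was 47.9% of the 94 members and 26.7% of all 1679 mature names, where a name spelled differently in the tables counts as 0. Taking 3 counts as the limit behind a 0, such a name lay at or below 0.794 CPM (replicate 1) and 0.728 CPM (replicate 2). This limit covers counting error only, and members at 0 in one library had up to 47 counts in the other. Taken by hairpin, 39 of 50 had at least 1 count and 11 had none on either arm. The 11 were miR-299a, miR-323, miR-337, miR-341, miR-382, miR-409, miR-433, miR-434, miR-487b, miR-543 and miR-1193. Of the 52 listed names, 20 were listed in both libraries, 16 in replicate 1 only and 16 in replicate 2 only. The share listed in both was thus 38.5%, beside 66.8% over all names. At least 10 counts were reached by 23 members in each library, but by only 13 in both (25%, beside 47.8% over all names).

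**Figure D1:**
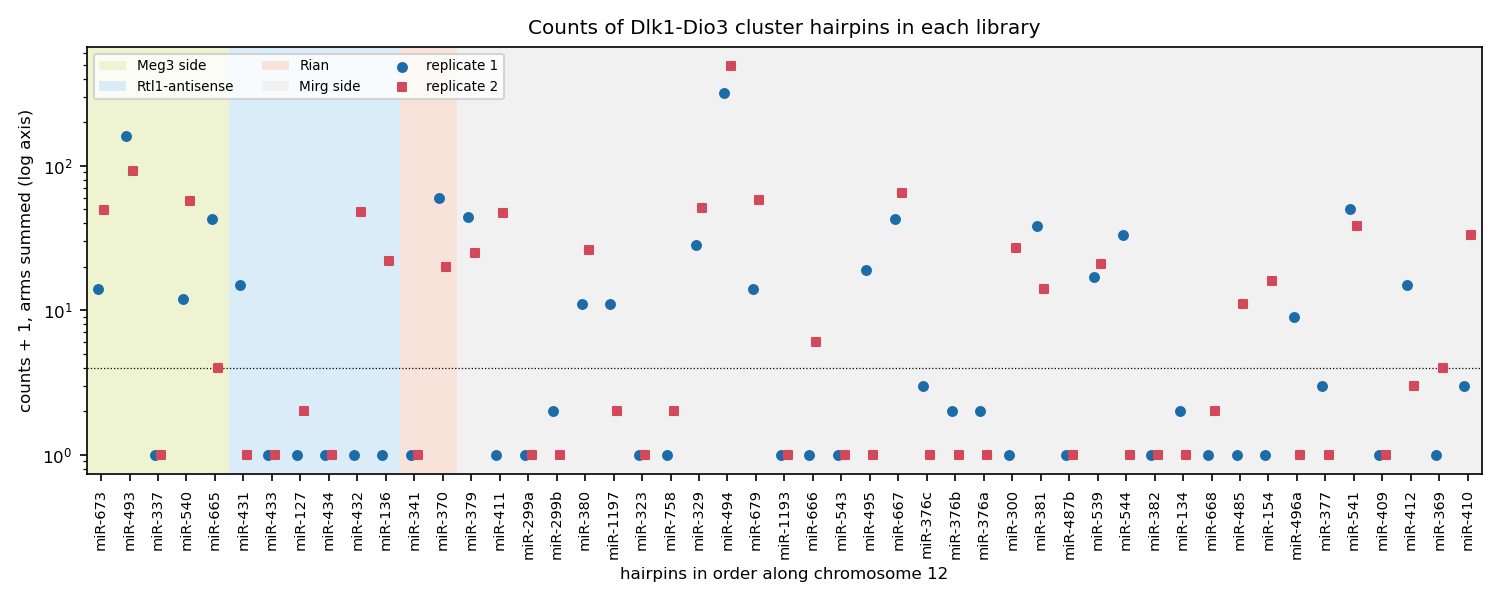
Counts plus 1 of each hairpin (arms summed, log axis) in replicate 1 (circles) and replicate 2 (squares), in order along chromosome 12. Shading marks the position groups, and a dotted line marks the 3 counts that a count of 0 allows for counting error alone. miR-494 stands highest with 317 and 485 counts, miR-493 follows with 159 and 91, and 11 hairpins lie at 0 in both libraries (miR-496b, on another chromosome, is not drawn).

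A large part of the cluster reads came from a single pair of names. miR-494-3p had 317 counts in replicate 1 and 485 in replicate 2 (101 ± 23.8 CPM, SD, n = 2). Its share of the cluster counts was 33.5% in replicate 1 and 40.3% in replicate 2. Even so, it ranked 251 and 222 among all names of the respective libraries. miR-493-3p had 159 and 91 counts (32.1 ± 14.2 CPM). No other member averaged 100 counts or more. The pair held 50.4% of the cluster counts in replicate 1 and 47.8% in replicate 2.

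The next members were near 10 CPM or below. miR-541-3p had 48 and 37 counts (10.8 ± 2.64 CPM). miR-370-3p had 59 and 19 counts (10.1 ± 7.79 CPM), so its place among the leading 4 rested on replicate 1, where it had 15.6 CPM against 4.61 CPM in replicate 2. The spread of miR-370-3p and miR-541-3p between libraries was larger than the gap between them, and their order is not resolved. miR-679-5p (13 and 57 counts), miR-540-3p (11 and 55), miR-667-5p (10 and 53) and miR-673-3p (10 and 39) were each high in replicate 2 and low in replicate 1. Their means ran from 6.05 to 8.63 CPM with SDs of 4.82 to 7.37 CPM. In contrast, miR-379-3p was steady at a low level, with 21 and 24 counts (5.69 ± 0.185 CPM).

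The Rtl1-antisense hairpins (miR-431, miR-433, miR-127, miR-434, miR-432 and miR-136) gave few reads. Only 4 of their 11 names were listed. miR-127-3p, miR-434-3p, miR-433-3p and miR-431-5p were all at 0 in both libraries. The other arm of miR-127, miR-127-5p, had 1 count in replicate 2 and none in replicate 1. miR-136-5p had 0 and 21 counts, and miR-432 had 0 and 47. miR-431-3p went the other way, with 14 counts in replicate 1 and 0 in replicate 2. No Rtl1-antisense name was therefore found in both libraries. The group held 1.48% of the cluster counts in replicate 1 (14 counts, Wilson 95% interval 0.885% to 2.47%) and 5.73% in replicate 2 (69 counts, 4.55% to 7.19%), so its mean of 3.61% ± 3.005 (SD, n = 2) is 1.48% without replicate 2 and 5.73% without replicate 1. The hairpins of miR-136 and miR-3071 overlap on the chromosome, and miR-3071-3p and miR-3071-5p had 1 and 0 counts in replicate 1 and 6 and 13 in replicate 2. The share depends on how the group is drawn. RefSeq also places the 5 hairpins of the Meg3 side within the span of Rtl1, and all 11 hairpins within that span held 25.3% and 22.2% of the cluster counts. Whether the authors' counting used strand is not given in the sources used here.

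The other position groups held the rest of the cluster counts. On the Meg3 side (miR-673, miR-493, miR-337, miR-540 and miR-665), 7 of 10 names were listed, and they held 23.8% of the cluster counts in replicate 1 (225 counts) and 16.4% in replicate 2 (198 counts). miR-493-3p supplied 159 and 91 of these. Both arms of miR-337 were at 0. miR-665-5p had 29 and 3 counts and miR-665-3p had 13 and 0. The Rian hairpins contributed miR-370-3p alone, with 6.24% and 1.58%, while both arms of miR-341 and miR-370-5p were at 0. The Mirg side, which takes in every other hairpin from miR-379 to miR-410, had 39 of 71 names listed and held 68.4% of the cluster counts in replicate 1 (646 counts) and 76.2% in replicate 2 (917 counts). With 1 value per library, an exact two-sided sign-flip test between groups cannot give a p-value below 0.5, so these shares are set against their spread only. The Mirg side exceeded every other group in both libraries, but it also holds 71 of the 97 names. Of its counts, miR-494-3p alone supplied 317 in replicate 1 and 485 in replicate 2.

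The Mirg side has been studied mainly in neurons, and 5 of its well-studied hairpins gave few counts here. miR-134-5p, which limits the size of dendritic spines through Limk1, had 1 count in replicate 1 and 0 in replicate 2. miR-154-5p was at 0 in both, with 0 and 15 counts on its other arm. miR-495-3p had 18 counts and 0. miR-410-3p had 0 and 18, and miR-410-5p had 2 and 14. miR-381-3p had 6 and 0, whereas miR-381-5p had 31 and 13. Across these hairpins the library that held the reads was not the same, and of the names given only miR-381-5p and miR-410-5p were found in both. The miR-376 hairpins, whose precursors are known targets of adenosine-to-inosine editing, had counts in replicate 1 only. These were 2 for miR-376c-3p and 1 each for miR-376a-3p and miR-376b-5p. The other Mirg-side names picked whatever their values were miR-494-3p (317 and 485 counts), miR-379-5p (22 and 0) and miR-411-5p (0 and 46).

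Some members resemble each other, and where nearly the whole sequence is shared, reads of one could be listed under another. The pairs below are shown because they share a seed or nearly the whole sequence, with the seed again in capitals.
miR-379-3p: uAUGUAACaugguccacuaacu
miR-411-3p: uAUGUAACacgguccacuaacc
miR-379-5p: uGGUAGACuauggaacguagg
miR-1193-5p: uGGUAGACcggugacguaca
miR-300-3p: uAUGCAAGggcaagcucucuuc
miR-381-3p: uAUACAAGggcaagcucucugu
miR-329-3p: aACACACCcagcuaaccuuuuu
miR-362-3p: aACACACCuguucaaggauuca

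miR-379-3p and miR-411-3p share their seed and differ at 2 of 22 bases. All reads of this pair were listed as miR-379-3p, in both libraries, and miR-411-3p was at 0. miR-379-5p shares its seed with miR-1193-5p, which was at 0. miR-379-5p was listed only in replicate 1, with 22 counts. miR-411-5p, from the neighbouring hairpin, was listed only in replicate 2, with 46 counts. miR-300-3p and miR-381-3p differ at 3 of 22 bases. The former had 0 and 21 counts and the latter 6 and 0, so each library listed a single name of this pair. miR-329-3p has the seed of miR-362-3p, a miRNA encoded on the X chromosome. Of the 2, miR-362-3p was by far the more abundant with 161 and 220 CPM, beside 0 and 7.52 CPM for miR-329-3p. The 94 member sequences held 87 different seeds. A seed was shared with another member by 14 names and with a name located elsewhere by 12.

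The listed members shared little sequence with the abundant miRNAs. The longest run that any of the 49 listed members with a sequence had in common with any of 81 other names of at least 1000 CPM was 9 bases, and the median was 7. The median GC content was 47.6% in these 49, 50.0% in the RefSeq names at 0 and 52.4% over the 1231 listed names with a sequence. The letters GGUUG, searched on the given strand, occurred in 9 of 47 member 5p sequences (19.1%) and in 26 of 650 other 5p sequences (4%). The 9 were miR-134-5p, miR-377-5p, miR-380-5p, miR-381-5p, miR-410-5p, miR-494-5p, miR-496a-5p, miR-758-5p and miR-1197-5p, all from the Mirg side. Of these, 6 were listed, and their counts summed to 52 and 53 in the 2 libraries. The motif was chosen after the sequences were seen, and it lies within the seed in most of the 9. Of these, miR-410-5p and miR-494-5p share a seed, as do miR-758-5p and miR-1197-5p.

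The libraries were then compared name by name, to see which members differed by more than the counting error of reads. An exact two-sided binomial test was run over the 1002 names that averaged 10 counts or more, and p-values were adjusted over all of them by the Benjamini-Hochberg method. It compares 2 libraries of 1 group, not conditions. Of the 52 members, 22 entered the test, and 19 (86.4%) passed an adjusted p-value of 0.05, against 70.6% over all names tested. Of the 19, 12 were higher in replicate 2 (36.2% over all names) and 7 lower (34.3%). Most names of these libraries thus differed beyond counting error, and the members are few. In the range of 10 to 100 mean counts, 17 of 20 members passed, beside 70.3% of 644 names, with depth not matched within the range.

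**Figure D2:**
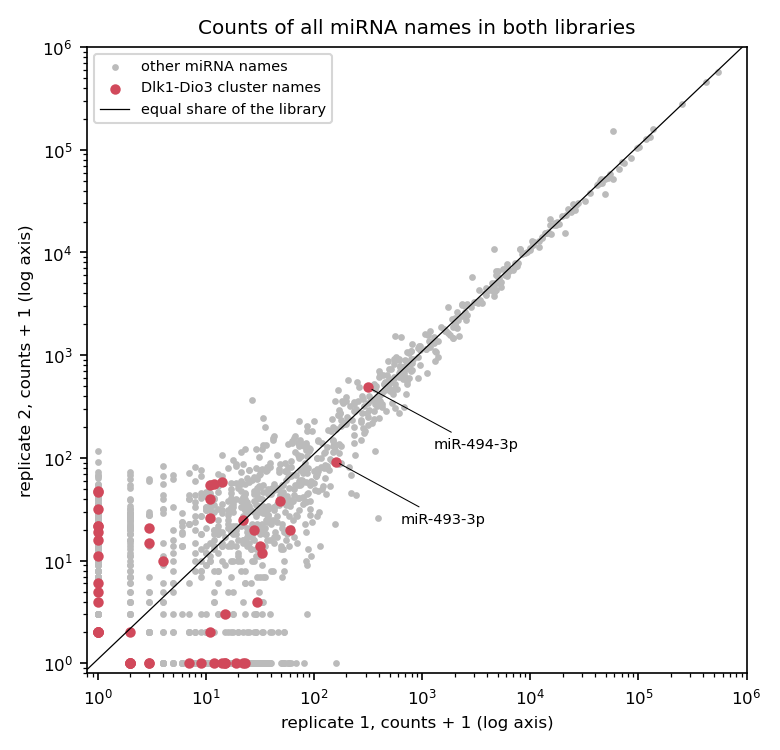
Counts plus 1 of every miRNA name in replicate 1 against replicate 2 (log axes), with Dlk1-Dio3 cluster names in red, other names in grey and a line where a name takes the same share of both libraries. miR-494-3p and miR-493-3p have the highest counts of the members, and the others lie in the scattered low range or at 0 in one library, where 16 names are in replicate 1 only and 16 in replicate 2 only.

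Both abundant members passed the test with modest ratios. miR-494-3p was higher in replicate 2 by a log2 ratio of 0.49 (exact 95% interval 0.28 to 0.70, exact binomial adjusted p = 5.86e-06). miR-493-3p was lower in replicate 2, with a log2 ratio of -0.93 (-1.32 to -0.55, adjusted p = 1.69e-06). Among scarcer tested members found in both libraries, miR-539-3p had 2 and 20 counts and a log2 ratio of 3.20 (1.15 to 6.34). miR-667-5p had one of 2.28 (1.29 to 3.42) and miR-540-3p one of 2.20 (1.25 to 3.28). Of the tested names found in both, the largest falls were in miR-665-5p, with -3.40 (-5.76 to -1.71), miR-370-3p, with -1.76 (-2.59 to -0.99), and miR-667-3p, with -1.67 (-2.80 to -0.64). All 6 passed the test. miR-541-3p, miR-329-5p and miR-379-3p did not pass. Their log2 ratios were -0.50 (-1.16 to 0.15), -0.63 (-1.56 to 0.27) and 0.07 (-0.84 to 0.98), and these intervals leave room for differences of more than 1.5-fold.

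The remaining 11 that passed included 7 that were at 0 in 1 library. Against the 3 counts allowed in the library at 0, miR-432 was at least 14.4-fold, miR-411-5p at least 14.0-fold, miR-329-3p at least 9.47-fold, and miR-136-5p and miR-300-3p at least 6.41-fold higher in replicate 2. miR-379-5p was at least 8.01-fold and miR-544-3p at least 7.64-fold lower in replicate 2. These bounds cover counting error only, which the spread between the libraries exceeded for most names. The other 4 were found in both libraries. miR-679-5p, miR-673-3p and miR-380-5p (10 and 25 counts) were higher in replicate 2, and miR-381-5p (31 and 13) was lower. Over all 52 members, 18 (34.6%) had 5 counts or more in one library with none in the other, 9 in each direction, beside 21.9% of all names. The highest such count was the 47 of miR-432. In the range of 10 to 100 mean counts, 7 of 20 members (35%) and 149 of 644 names (23.1%) were at 0 in one library. The median absolute log2 ratio of names found in both was 1.76 over 13 members of this range and 1.14 over 495 names. No member of the range averaged more counts than miR-541-3p (48 and 37), so depth within it was not matched. An alternative first shrank all counts by a factor of 20.7, which is the average ratio of variance to mean for names averaging 10 to 300 counts. The exact binomial test then called 0 members, with 0 at an unadjusted p below 0.05, and 16 of all names. This drop is built into the setting, because the division leaves most members with too few counts to pass whatever their difference.

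The arms of a hairpin were compared within each library. Only miR-494 reached 100 counts in both libraries. All of its reads were from the 3p arm, 317 and 485, with miR-494-5p at 0, which allows at most 1.20% and 0.786% on the 5p arm (upper Wilson bounds). With the exact binomial test in each library, the same arm was dominant in both for 92.2% of the 179 hairpins of this depth. A minimum of 20 counts admitted 6 cluster hairpins, of which 3 kept a dominant arm, beside 76.0% of 342 hairpins. Depth was not matched, because 179 of the 342 reached 100 counts in both libraries, but only miR-494 of the 6. The 3 that kept a dominant arm were miR-494, miR-493 and miR-541, all with the 3p arm. miR-493 had 159 and 91 counts on the 3p arm and none on the 5p arm. miR-541 had 48 and 37 on the 3p arm and 1 and 0 on the 5p arm.

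The arms of the other 3 hairpins depended on the library. The 5p arm of miR-667 held 23.8% of its 42 counts in replicate 1 (Wilson 95% interval 13.5% to 38.5%) and 82.8% of its 64 counts in replicate 2 (71.8% to 90.1%). The 5p arm of miR-379 held 51.2% of 43 counts in replicate 1 and 0 of 24 in replicate 2. The 5p arm of miR-329 held all 27 counts in replicate 1 and 38.0% of 50 counts in replicate 2 (25.9% to 51.8%). In each of these, the intervals of the libraries, which cover counting error only, did not overlap. How many of all hairpins do the same was not counted. Over all members, 3p names held 746 counts and 5p names 198 in replicate 1, and 874 and 282 in replicate 2. Without miR-494-3p and miR-493-3p, the 3p names held 270 and 298 counts.

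**Figure D3:**
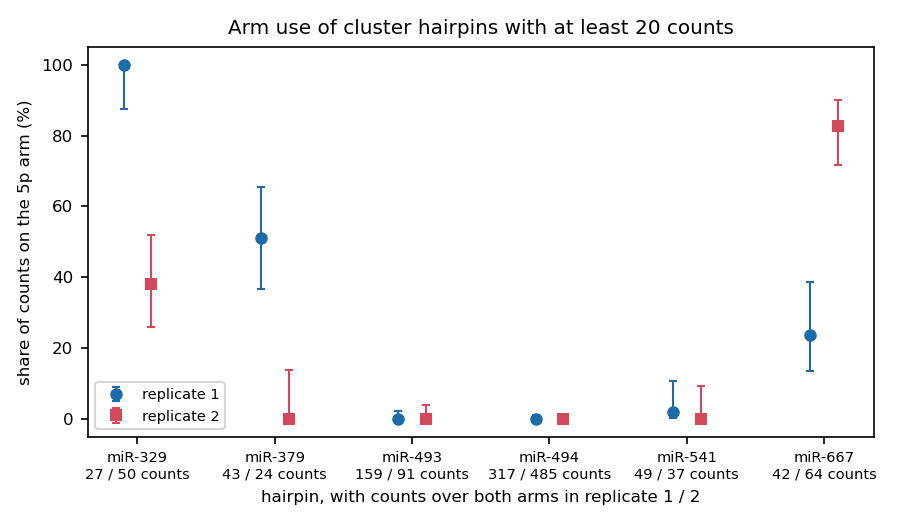
Share of counts on the 5p arm (percent, with Wilson 95% intervals for counting error) for the 6 cluster hairpins with at least 20 counts in each library, in replicate 1 (circles) and replicate 2 (squares). miR-493, miR-494 and miR-541 lie near 0 in both libraries, and miR-329, miR-379 and miR-667 have intervals that do not overlap between them. The share of all hairpins without such overlap was not counted.

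The region between Dlk1 and Dio3 also holds hairpins with other numbers. From these, 13 names were listed and 7 of them were found in both libraries, summing to 111 and 235 counts. Names spelled differently in RefSeq, such as miR-3070b-5p (13 and 28 counts), were assigned by their number. miR-1906 had 43 and 18 counts and is named from a hairpin in Meg3. miR-3072-3p had 23 and 36 counts, miR-770-3p had 11 and 40, miR-1188-3p had 16 and 6, and miR-654-5p had 0 and 43. Both arms of miR-1247, the hairpin next to Dio3, were at 0. None exceeded 43 counts in either library. Including them in place of miR-496b raised the share of the region to 0.0314%.

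Names numbered as another large imprinted miRNA array of the mouse were recovered at a much higher level. The Sfmbt2 cluster, expressed from the paternal chromosome, is represented by 70 listed names (miR-297, miR-466, miR-467 and miR-669). These names were chosen by number alone, and whether each lies in Sfmbt2 is not shown here. They summed to 80684 counts in replicate 1 and 86035 in replicate 2, which was 85.4 and 71.5 times the Dlk1-Dio3 counts (78.4 ± 9.84, SD, n = 2). Of the 70 names, 68 (97.1%) were found in both libraries. Of the 68 that were tested, 46 (67.6%) passed the exact binomial test for a difference between replicates, against 70.6% over all names. The gap between these sets of names was far larger than the spread between libraries, although 2 libraries allow no exact sign-flip p-value below 0.5. Many Sfmbt2 names are near-identical, and how reads that match several names were assigned is not given in the sources used here.

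The labelled cell type was checked against miRNAs typical of several cell types. The keratinocyte and epithelial list had all 7 names in both libraries and summed to 105854 and 106177 CPM. The mesenchymal list of 6 names summed to 24.9 and 101 CPM in replicates 1 and 2, with miR-199b-5p at 0 in both. The difference lay in miR-214-3p, with 26 and 364 counts. The neural list of 4 names summed to 305 and 254 CPM, with 3 names in both libraries. These were miR-219a-5p (533 and 417 counts), miR-9-5p (418 and 419) and miR-128-3p (190 and 211). The remaining name, miR-124-3p, the defining neuronal miRNA, had 12 counts and 0. The pluripotent list of 6 names summed to 7.68 and 18.2 CPM, with 4 names at 0 in both. The muscle list summed to 34.7 and 20.4 CPM, the blood list to 6.09 and 11.9 CPM, and the melanocyte name miR-211-5p had 0 and 5 counts. The cluster sum (250.2 and 292 CPM for replicates 1 and 2) was in the range of the neural sum and above the mesenchymal sum in both libraries. These totals depend on list size, because the cluster sum takes in 52 names against 4 neural and 6 mesenchymal ones. By name, the median cluster member had a mean of 1.91 CPM, whereas means in the neural list ran from 1.59 to 121 CPM. The part of other cell types in the cluster's reads was not tested.

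**Figure D4:**
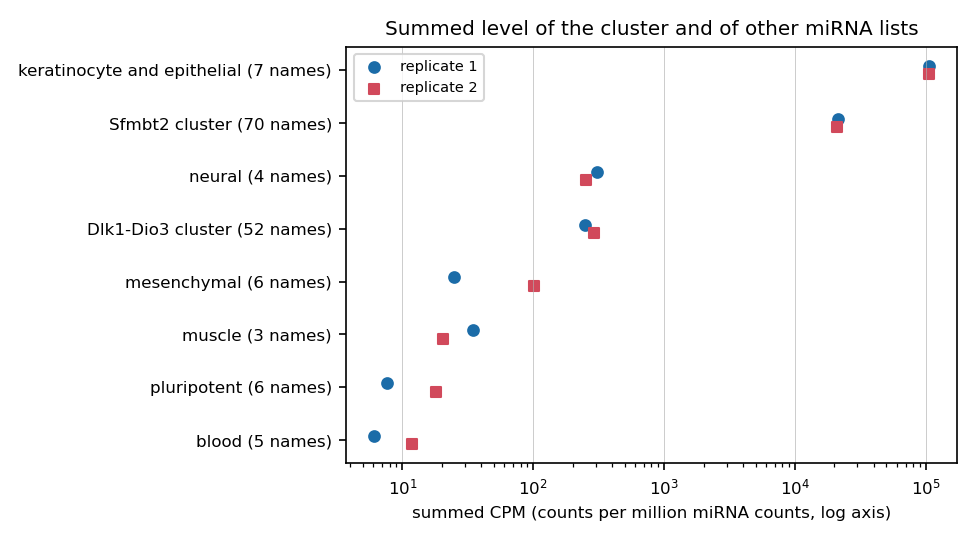
Summed CPM (log axis) of the Dlk1-Dio3 cluster, the Sfmbt2 cluster and the miRNA lists for cell types, in replicate 1 (circles) and replicate 2 (squares). The Dlk1-Dio3 cluster lies at 250.2 and 292 CPM, far below the Sfmbt2 cluster and the 105854 and 106177 CPM of the keratinocyte and epithelial list.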

How the data were processed

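Each library came as its own table without a header, pairing mature miRNA names with counts that the authors had not normalised (whole numbers with unequal totals). The submitters' processing notes name cutadapt, Novoalign and the mm10 build, without roles. The miRNA reference and the handling of PCR copies are not given in the sources used here. A name missing from a table was set to 0. Rows without a miRNA name (0.00265% and 0.000218% of the counts) were left out. CPM is counts per 1000000 miRNA counts.

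Libraries were compared by exact binomial tests with scipy 1.17.1 (Python 3.11.15). A quasi-likelihood model needs a contrast that 1 group does not give. Alternatives used edgeR 4.0.16 and DESeq2 1.42.0 scaling, other minimums and thresholds. The named members were the 12 most abundant by mean CPM, called members averaging 100 counts or more and the 3 largest finite ratios in each direction. Hairpins of the arm test and 13 Rtl1-antisense and Mirg-side names, picked whatever their values, were also named. Others were chosen after their values were seen. In the arm test, an arm named in RefSeq and missing from the tables counted as 0. miR-142 is spelled without a letter in the tables, and its other spelling was dropped from the blood list. Members and lists were chosen with earlier results of these data known. Names and sequences came from RefSeq tables of GRCm38.p6.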

Additional observations from a re-analysis of the deposited data

How the results depend on the processing

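The cluster share of 0.0271% was 0.0316% once miR-31-5p was taken out of the total and 0.0314% with all names between Dlk1 and Dio3. It moved by less than the SD under TMM factors, DESeq2 size factors and a mean of at least 10 counts. Leaving out each library gave 0.0250% to 0.0292%, 1.48% to 5.73% for the Rtl1-antisense share, 1.17% to 1.40% for the cluster over the Sfmbt2 cluster, and 23 detected members either way. Detected members averaged 36 with at least 1 count and 5.5 at 10 CPM. In the exact binomial test between libraries, 19 of 22 members passed as reported, beside 70.6% of all names tested. With no count minimum 32 of 52 passed, beside 61.1% of all names. At a minimum mean of 100 counts 2 passed, beside 70.9% of all names, and only 2 members reach it. When counts were divided by the variance-to-mean index 0 passed, beside 1.60% of all names, a drop built into that setting. Under this division miR-379-3p, which did not pass in either case, changed sign (adjusted p = 1 in both). Under both scalings the same 19 members passed. The Rtl1-antisense share was 23.7% with all hairpins in the RefSeq span of Rtl1, a grouping added after the data were seen. A minimum of 20 counts gave 3 hairpins with the same dominant arm in place of 1, and none reached 1000. Low counts limit every member but miR-494-3p and miR-493-3p. No paired analysis was possible because both libraries belong to a single group.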
